A study of Homo sapiens with 12 samples.

Results

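The genes described here are 10 members of the S100 family of small calcium-binding proteins: S100A2, S100A4, S100A6, S100A7, S100A8, S100A9, S100A10, S100A11, S100A14 and S100P. They were taken by name from the 55765 genes of each count table. Of the 10, 9 had enough counts to be among the 17727 genes tested, and S100A7 did not. In the GENCODE annotation 9 of them lie on chromosome 1, and S100P lies alone on chromosome 4.

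The study asked whether PRMT1, the main enzyme that places asymmetric dimethyl marks on protein arginines, is needed for genes to respond to progestin. RNA-seq was made from T47D, an established luminal line from a breast tumor with receptors for progesterone and estrogen, in 4 groups of 3 libraries, each a biological replicate per the labels. The groups are cells with a nonspecific siRNA (siCT) given the vehicle ethanol, siCT cells given 10 nM of the synthetic progestin R5020, cells with an siRNA against PRMT1 (siPRMT1) given ethanol, and siPRMT1 cells given 10 nM R5020, each for 6 h. All 12 libraries come from this 1 line in RPMI medium with insulin and fetal bovine serum, and no group went without an siRNA. An siRNA lowers an mRNA without removing the gene, and how many siRNA sequences were used is not given in the sources used here.

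S100 proteins are small proteins with a pair of EF-hand loops that bind calcium, and most work as dimers that open a binding face for a target protein when calcium rises. Some stay inside the cell and bind annexins, the cytoskeleton or p53, and some are also secreted and act on surface receptors such as RAGE (gene AGER) and TLR4. S100A8 and S100A9 form calprotectin, which is best known from neutrophils and monocytes and is also made by stressed or squamous epithelium. Several members, among them S100P, S100A4 and S100A7, are studied in breast cancer, where they have been tied to migration and invasion.

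The start regions of 4 members are shown. S100P and S100A10 are shown as the members called with R5020. S100A8 and S100A9 are shown for the largest fold rises among the members with siPRMT1. Each line gives the 250 bases before the start site on the gene's own strand, from RefSeq, build GRCh38.p14. The windows are S100P at chr4:6693628-6693877 (plus strand), S100A10 at chr1:151993860-151994109 (minus strand), S100A8 at chr1:153391189-153391438 (minus strand) and S100A9 at chr1:153357604-153357853 (plus strand). Capitals mark a match to any of 6 motifs searched on both strands.
S100P: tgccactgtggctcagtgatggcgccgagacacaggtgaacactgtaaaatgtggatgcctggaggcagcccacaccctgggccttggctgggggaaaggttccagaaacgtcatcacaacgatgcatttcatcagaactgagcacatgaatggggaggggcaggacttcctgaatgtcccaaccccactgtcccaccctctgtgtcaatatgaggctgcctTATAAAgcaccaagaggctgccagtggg
S100A10: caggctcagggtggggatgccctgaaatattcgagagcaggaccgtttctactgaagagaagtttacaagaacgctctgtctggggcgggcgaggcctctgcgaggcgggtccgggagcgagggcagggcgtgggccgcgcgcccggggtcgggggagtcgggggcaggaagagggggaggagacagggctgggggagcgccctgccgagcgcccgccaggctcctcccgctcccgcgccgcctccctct
S100A8: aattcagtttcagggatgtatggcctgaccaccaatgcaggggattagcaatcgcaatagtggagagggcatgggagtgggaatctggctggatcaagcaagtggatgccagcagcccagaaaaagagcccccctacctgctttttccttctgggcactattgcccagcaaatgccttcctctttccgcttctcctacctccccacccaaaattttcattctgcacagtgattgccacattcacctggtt
S100A9: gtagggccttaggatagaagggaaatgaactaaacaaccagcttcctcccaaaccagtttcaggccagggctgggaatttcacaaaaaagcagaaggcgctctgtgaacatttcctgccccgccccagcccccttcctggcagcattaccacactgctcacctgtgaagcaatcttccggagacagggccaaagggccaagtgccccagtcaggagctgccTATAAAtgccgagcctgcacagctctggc

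The 6 motifs were the TATA box (TATAAA), the palindrome core bound by the progesterone receptor (ACANNNTGT), the receptor's half-site (TGTTCT), the STAT palindrome (TTCNNNGAA), the AP-1 motif (TGANTCA) and a C/EBP motif (TTGCNNAA), where N is any base. All 10 members matched a window by symbol. TATAAA stood in 4 of the 10 windows used: 28 bases before the start of S100P, 28 before S100A7, 29 before S100A9 and 31 before S100A4. Among all 35116 windows of this length, 10.7% held it. S100A8 has 3 windows in the RefSeq table. The one shown, which starts at a principal GENCODE transcript, has no TATAAA, and the other 2 have it. The AP-1 motif stood in S100A2 only, 52 bases before the start, against 6.57% of all windows, and the C/EBP motif in S100A11 only, 33 bases before the start, against 9.05%. None of the 10 windows held ACANNNTGT (4.61% of all windows), TGTTCT (12.4%) or TTCNNNGAA (6.57%). These are letter matches in a short window, and say nothing of binding there or elsewhere.

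Total counts ran from 26783525 to 34120937 per library. Levels are given as CPM, counts per 1000000 of a library's total after TMM scaling, which corrects totals for a few very abundant genes. PRMT1 was at 37.5 CPM in siCT ethanol and 8.23 in siPRMT1 ethanol, 4.56-fold lower, and at 43.0 and 7.08 in R5020, 6.07-fold lower. The libraries siCT ethanol replicate 3 and siCT R5020 replicate 1 stood apart from the other 10 libraries: mitochondrially encoded genes took 59.3% and 52.4% of their counts, against 31.3% to 38.3% in the rest. Replicates of the siCT groups spread more (edgeR's biological coefficients of variation 0.325 with ethanol and 0.212 with R5020) than those of the siPRMT1 groups (0.0464 and 0.0753). All 10 luminal markers looked at (such as ESR1, PGR, GATA3 and KRT18) were tested, and their summed level was 6509 to 16277 CPM per library. In bulk RNA, fewer cells that use a gene and less RNA of it per cell cannot be told apart.

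T47D cells held S100 mRNAs at very unequal levels. The members together took 0.118% to 0.577% of all counts in a library, and S100A6, S100A10 and S100A11 made up 88.0% to 96.6% of the members' counts. To compare genes, levels were divided by the length of all exons of a gene in kilobases. This length counts every annotated exon, whichever transcripts the cells hold, so order and overlap between genes depend on it. S100A11, a partner of annexin A1 and a growth regulator in epithelia, was the highest member in every group, with means of 2029 CPM per kb in siCT ethanol, 2681 with siCT and R5020, 2786 with siPRMT1 and ethanol, and 3886 with siPRMT1 and R5020. S100A10 and S100A6 came next. Their libraries overlapped in both ethanol groups (593.5 and 540.3 CPM per kb in siCT, 544.7 and 555.4 in siPRMT1), and in both R5020 groups S100A10 stood above S100A6 with no overlap. In CPM, before division by length, S100A10 (810.3 to 856.4) stood above S100A6 (516.0 to 559.5) in siPRMT1 ethanol without overlap.

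Below these, the order of the levels per kb depended on the group. In siCT ethanol S100A4 stood at 72.1 CPM per kb, S100P at 18.9 and S100A9 at 11.2, and the ranges of S100P and S100A9 overlapped. In CPM these 2 ranges (18.4 to 29.8 and 4.26 to 8.59) did not overlap. S100P was above S100A4 in both R5020 groups, at 204.4 against 61.6 CPM per kb in siCT and 414.4 against 76.1 in siPRMT1, with no overlap. S100A8 was below 1 CPM per kb on average in both siCT groups (0.867 and 0.837) and at 18.4 and 15.6 in the siPRMT1 groups, below S100A9 in all 4 groups. S100A2, S100A14 and S100A7 were the 3 lowest members in every group, none above 0.437 CPM per kb on average. In the siPRMT1 groups each of them overlapped its neighbour in the order S100A14, S100A7, S100A2. S100A4 and S100A9 overlapped in siPRMT1 R5020 alone (76.1 and 61.1 CPM per kb), and not there in CPM (64.9 to 84.5 and 33.2 to 37.1).

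**Figure D1:**
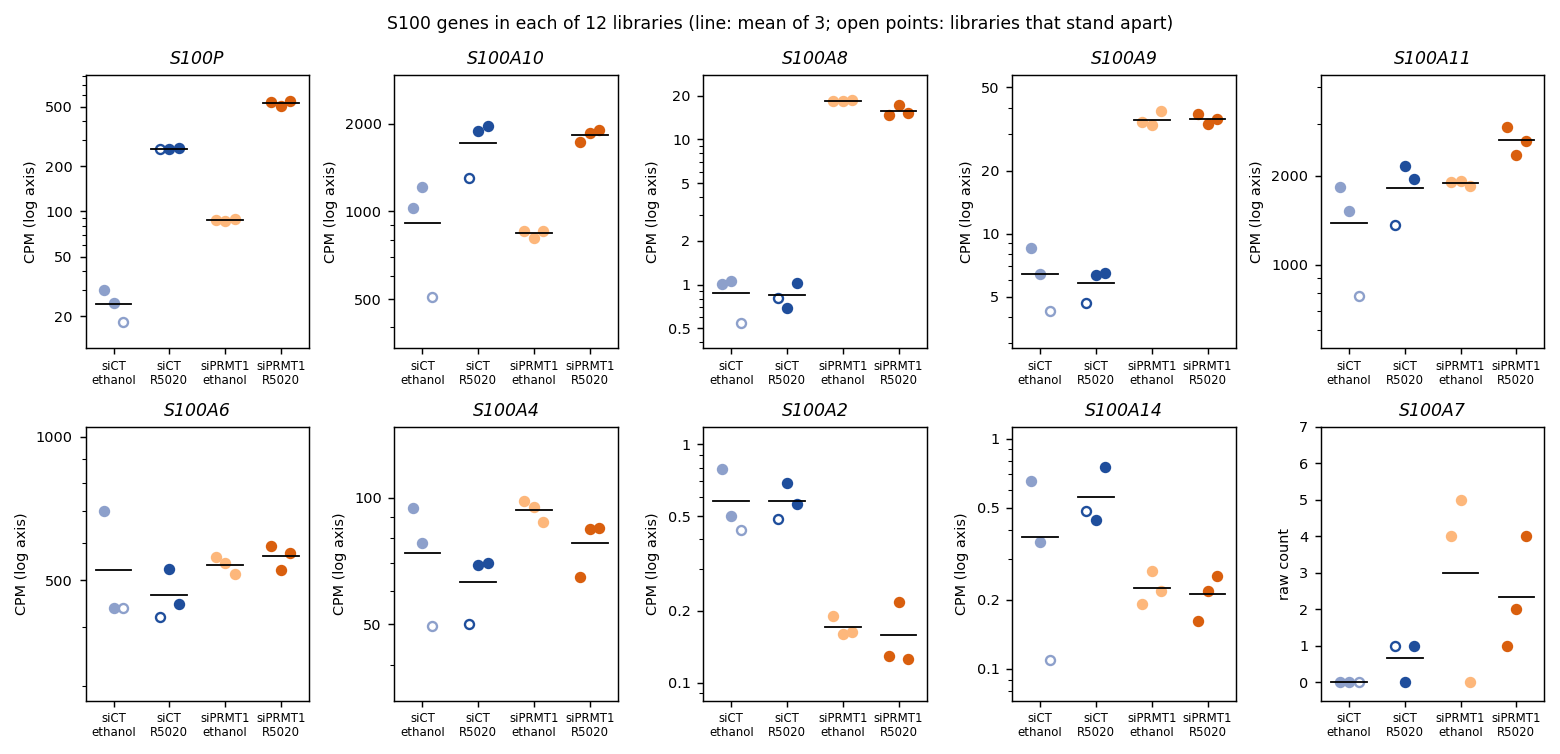
Level of each S100 gene in each of the 12 libraries, in CPM on a log axis (raw counts on a linear axis for S100A7), by group, with a line at the mean of 3 libraries and open points for siCT ethanol replicate 3 and siCT R5020 replicate 1. S100P is higher in R5020 than in ethanol with either siRNA, and the 6 siPRMT1 libraries of S100A8 (14.6 to 18.6 CPM) and S100A9 (32.8 to 38.3 CPM) lie above all 6 siCT libraries.

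S100P, a secreted member that binds RAGE outside the cell and ezrin inside it, rose with R5020 and with siPRMT1. In siCT cells it stood at 29.8, 24.4 and 18.4 CPM in the 3 ethanol libraries and at 261.7, 260.5 and 262.9 CPM in the 3 R5020 libraries. In siPRMT1 cells the ethanol libraries held 88.0, 85.8 and 88.9 CPM and the R5020 libraries 539.4, 507.6 and 544.4 CPM. The 4 groups did not overlap: siCT ethanol was lowest, then siPRMT1 ethanol, then siCT R5020, and siPRMT1 R5020 was highest. Group means, from lowest to highest, were 24.2 ± 5.73, 87.6 ± 1.6, 261.7 ± 1.19 and 530.5 ± 19.9 CPM (SD, n = 3).

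R5020 raised S100P 10.8-fold in siCT cells (3.43 ± 0.18 SE in log2). By the quasi-likelihood test of edgeR, with Benjamini-Hochberg adjustment over all tested genes, its adjusted p was 8.02e-08. In siPRMT1 cells it raised S100P 6.06-fold (log2 2.60 ± 0.18, adjusted p = 4.11e-07). Knockdown of PRMT1 raised S100P 3.61-fold in ethanol (log2 1.85 ± 0.17, adjusted p = 2.07e-05) and 2.03-fold in R5020 (log2 1.02 ± 0.17, adjusted p = 0.0012). Without the 2 libraries apart from the rest these were 9.61-fold, 6.03-fold, 3.26-fold and 2.04-fold, all called.

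The scale decides in which cells the R5020 difference of S100P looks larger. In CPM, R5020 added 237.5 in siCT cells and 442.9 in siPRMT1 cells. In fold, the siPRMT1 cells had the smaller ratio: the interaction, which is the siPRMT1 log2 fold change less the siCT one, was -0.83 ± 0.24 (SE). The interaction was not called by edgeR (unadjusted p = 0.00364, adjusted p = 0.485). It was called in 3 of 21 other ways of processing, and in 0 of the 12 that left out 1 library. Among the 3 were DESeq2 (adjusted p = 0.0177) and edgeR without the 2 libraries apart from the rest (-0.67 ± 0.12, adjusted p = 0.0275). It was not called with voom quality weights (adjusted p = 0.078) or by edgeR with a replicate block (adjusted p = 0.862). The plot of S100P by siRNA and treatment shows both scales.

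**Figure D2:**
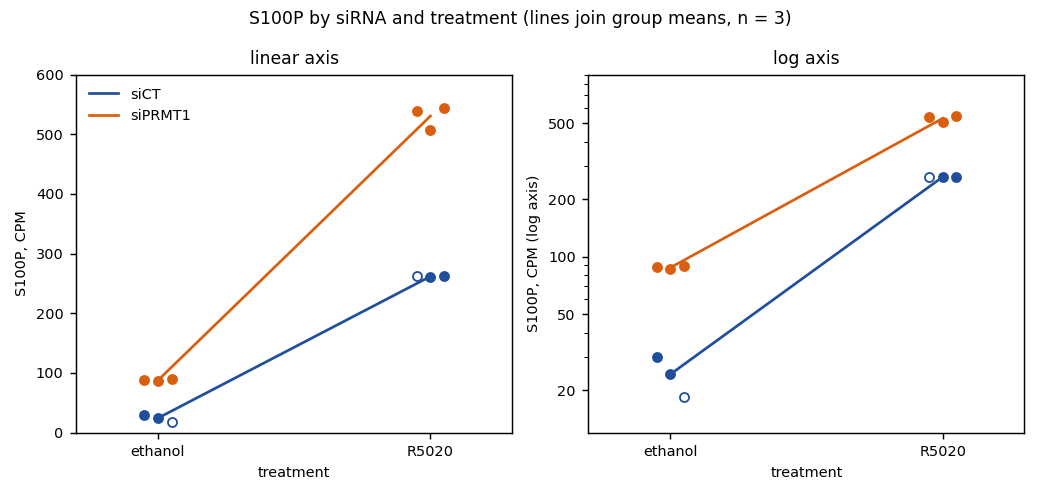
S100P in CPM in each library by treatment (horizontal) and siRNA (colour), on a linear axis at left and a log axis at right, with lines joining the means of 3 libraries and open points for the 2 libraries that stood apart. The siPRMT1 line climbs further on the linear axis (442.9 against 237.5 CPM) and less on the log axis (2.60 against 3.43 in log2).

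S100A10, which forms a tetramer with annexin A2 and brings plasminogen and ion channels to the plasma membrane, also rose with R5020. In siCT cells it measured 1027, 1211 and 508.5 CPM with ethanol and 1302, 1895 and 1967 CPM with R5020. In siPRMT1 cells it measured 854.6, 810.3 and 856.4 CPM with ethanol and 1725, 1854 and 1901 CPM with R5020. R5020 and ethanol libraries did not overlap with either siRNA, and the lowest value of each siCT group was that of the library that stood apart. The increase was 1.88-fold in siCT cells (log2 0.91 ± 0.28, adjusted p = 0.0468, edgeR) and 2.17-fold in siPRMT1 cells (log2 1.12 ± 0.28, adjusted p = 0.0141, edgeR).

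The S100A10 call in siCT cells is close to the threshold, as is shown in the plot of calls by processing. It was called in 10 of 22 other ways of processing, always with a higher level in R5020, and with log2 fold changes from 0.65 to 1.17. Leaving out any 1 of 9 libraries ended it: siCT ethanol replicate 1 (adjusted p = 0.0528), siCT R5020 replicates 2 (0.143) and 3 (0.154), or any of the 6 siPRMT1 libraries (0.0709 to 0.0727), which only share the spread. It was also lost with library totals in place of TMM (adjusted p = 0.324), with a replicate block (0.0782) and with only the 6 siCT libraries (0.289). Without the pair that stood apart it was 1.72-fold (log2 0.78 ± 0.09, adjusted p = 8.26e-05). In siPRMT1 cells S100A10 was called with R5020 in 17 of 22 other ways of processing. Among them were edgeR on the 6 siPRMT1 libraries alone (log2 1.11 ± 0.06, adjusted p = 4.46e-11) and without the pair (1.11 ± 0.08, 4.84e-07). The SE of 0.28 over all 12 libraries rests on a spread shared with the siCT groups. In that fit the call was lost without any 1 of the 3 siPRMT1 ethanol libraries (adjusted p = 0.0547 to 0.0627) or siPRMT1 R5020 replicate 3 (0.0513), and with library totals (0.198). With siPRMT1 itself, S100A10 differed by -0.12 ± 0.28 in ethanol (adjusted p = 0.754) and 0.09 ± 0.28 in R5020 (adjusted p = 0.842, log2, edgeR), neither called. Without the pair, it fell by 0.40 on the log2 scale in ethanol (adjusted p = 0.00247).

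**Figure D3:**
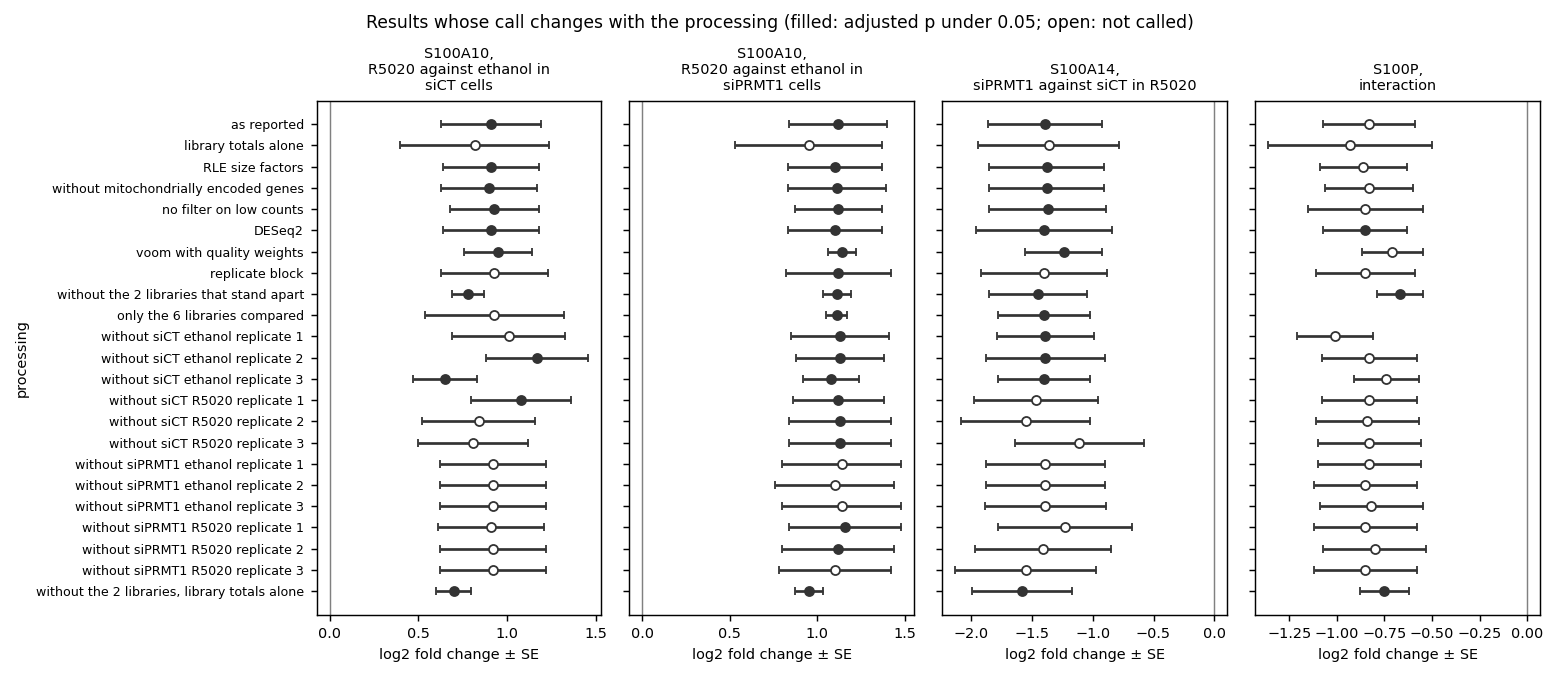
Log2 fold change with its standard error (horizontal) for 4 results under each way of processing (vertical), filled where the adjusted p was under 0.05 and open where it was not. S100A10 with R5020 and S100A14 with siPRMT1 keep their sign throughout and change their call, and the S100P interaction is filled in 3 of the alternatives.

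R5020 gave calls for 2 of the 9 tested members in each background, S100P and S100A10, both higher and none lower. Over all genes in siCT cells, 13% were called, 7.59% higher and 5.43% lower. In siPRMT1 cells 15.4% were called, 9.30% higher and 6.08% lower. The median log2 fold change of the 9 members was -0.02 in siCT cells and 0.01 in siPRMT1 cells, beside -0.04 and -0.0036 over all genes tested. With voom quality weights, or when the 6 siPRMT1 libraries were fitted alone, R5020 called 5 members in siPRMT1 cells: S100A11 was added as higher, and S100A4 and S100A8 as lower. These fits called 46.1% and 46.6% of all genes they tested.

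S100A8 and S100A9, the subunits of calprotectin, rose with siPRMT1 whether or not R5020 was given. S100A8 counts were 37, 36 and 10 in siCT ethanol, 20, 25 and 33 with siCT and R5020, 671, 694 and 684 with siPRMT1 and ethanol, and 453, 469 and 485 with siPRMT1 and R5020. In CPM the 6 siCT libraries lay between 0.547 and 1.06 and the 6 siPRMT1 libraries between 14.6 and 18.6, far apart. S100A8 was 20.3-fold higher with siPRMT1 in ethanol (log2 4.34 ± 0.22, adjusted p = 5.09e-07, edgeR), from 0.872 ± 0.283 to 18.5 ± 0.145 CPM. It was 18.6-fold higher in R5020 (log2 4.21 ± 0.22, adjusted p = 7.49e-07), from 0.842 ± 0.173 to 15.7 ± 1.27 CPM. Among the 17727 genes these log2 fold changes ranked 8 and 4 from the highest.

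S100A9 stood at 8.59, 6.46 and 4.26 CPM in siCT ethanol and at 34.0, 32.8 and 38.3 CPM in siPRMT1 ethanol. In R5020 it stood at 4.68, 6.37 and 6.47 CPM with siCT and at 37.1, 33.2 and 35.4 CPM with siPRMT1. Every siPRMT1 library was above every siCT library, and within each siRNA the R5020 and ethanol libraries overlapped. The rise was 5.38-fold in ethanol (log2 2.43 ± 0.22, adjusted p = 1.49e-05, edgeR) and 6.01-fold in R5020 (log2 2.59 ± 0.22, adjusted p = 1.6e-05). Without the pair that stood apart, S100A8 was 17.9-fold and 18.4-fold higher and S100A9 4.69-fold and 5.54-fold higher, all called.

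R5020 itself gave no difference of either subunit that edgeR called over all 12 libraries. For S100A8 the log2 fold change was -0.11 ± 0.24 in siCT cells (adjusted p = 0.846) and -0.24 ± 0.17 in siPRMT1 cells (adjusted p = 0.469, edgeR). In siPRMT1 cells the 3 R5020 libraries (14.6 to 17.1 CPM) lay below the 3 ethanol libraries (18.3 to 18.6 CPM), and the authors' deposited table gives this difference as -0.236 with an adjusted p of 0.0385. For S100A9 it was -0.15 ± 0.21 in siCT cells (adjusted p = 0.743) and 0.01 ± 0.20 in siPRMT1 cells (adjusted p = 0.991).

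The balance of the 2 subunits also differed between the siRNAs. There were 0.108 to 0.172 S100A8 counts per S100A9 count in the 6 siCT libraries and 0.394 to 0.562 in the 6 siPRMT1 libraries. Per length of exon, this was 0.0621 to 0.0989 and 0.226 to 0.323, so S100A9 mRNA was the more abundant subunit in every library. Over the 12 libraries, the log2 levels of S100A8 and S100A9 had a Pearson correlation of 0.989, a description of libraries that fall into separate siCT and siPRMT1 clusters.

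**Figure D4:**
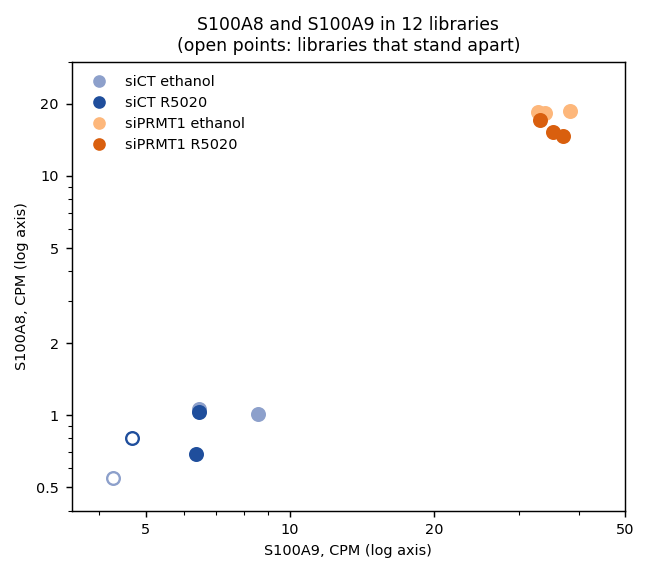
S100A8 (vertical) against S100A9 (horizontal) in CPM on log axes, with 1 point for each of the 12 libraries, coloured by group, and open points for the 2 libraries that stood apart. The 6 siPRMT1 libraries form a cluster at 32.8 to 38.3 CPM of S100A9, clear of the 6 siCT libraries at 4.26 to 8.59 CPM, and R5020 does not separate the libraries within the siCT cluster.

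Leukocytes are the best known source of these 2 mRNAs, so leukocyte markers were read in the same libraries. Of 14 such markers 2 passed the filter on low counts, CSF3R and ITGB2, and their sum over all 14 was 0.649 to 2.52 CPM in siCT ethanol, 0.906 to 1.70 with siCT and R5020, 1.33 to 1.44 with siPRMT1 and ethanol, and 1.20 to 1.45 with siPRMT1 and R5020. MPO had 0 counts in every library, PTPRC 0 to 5, CD14 0 to 12 and LYZ 0 to 3. CSF3R, the receptor for G-CSF, was higher with siPRMT1 from a very low level (0 to 17 counts per library): 0.0386 ± 0.0453 against 0.323 ± 0.131 CPM in ethanol (6.75-fold, adjusted p = 0.00754, edgeR) and 0.0318 against 0.347 CPM in R5020 (9.66-fold, adjusted p = 0.0051). ITGB2 was not called in any comparison (log2 -0.17 ± 0.42 and -0.58 ± 0.45 with siPRMT1). Squamous and basal markers were also low: of 10, 4 were tested, and their summed level was 3.11 to 5.46 CPM per library. KRT14 had 0 to 4 counts and DSG3 0 to 4, while KRT5 had 0 counts in all ethanol libraries and at most 46 in siPRMT1 R5020, where it was called higher than in ethanol (adjusted p = 9.7e-05) and than in siCT R5020 (adjusted p = 0.00119). R5020 called TP63 lower with either siRNA (5.41-fold and 4.21-fold), and KRT16, a keratin of stressed squamous epithelium, higher in siPRMT1 cells (3.47-fold, adjusted p = 0.00116, edgeR). In siCT cells KRT16 was 2.01-fold higher with R5020 and not called (adjusted p = 0.0567, edgeR). It was called there without the pair that stood apart (2.18-fold, adjusted p = 0.0431). Over all genes, R5020 called 13% in siCT cells and 15.4% in siPRMT1 cells. With siPRMT1 in ethanol edgeR called none of the 4 tested markers over all 12 libraries, beside 32.8% of all genes. TP63 was called lower without the pair that stood apart (log2 -0.75, adjusted p = 0.0154, edgeR).

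Other marker lists moved with siPRMT1 too. The summed luminal markers stood at 7685 to 10649 CPM in siCT ethanol and 15689 to 16277 in siPRMT1 ethanol, and at 6509 to 7765 CPM in siCT R5020 and 11767 to 12561 in siPRMT1 R5020, with KRT18 2.67-fold and 2.66-fold higher. KRT18 itself rose from 2860.5 to 7634.5 CPM in ethanol. Of the 10 luminal markers, siPRMT1 called 4 higher and none lower in ethanol, and 4 higher and 2 lower in R5020 (median log2 0.28 and 0.15). Over all genes these comparisons called 32.8% and 25.7%. Of 9 stroma and endothelium markers 3 were tested, and their sum over all 9 was 76.7 to 127.6 CPM in the 6 siCT libraries and 38.4 to 43.8 in the 6 siPRMT1 libraries, with ACTA2 6.43-fold and 5.57-fold lower. The part of these shifts in the S100 differences was not tested.

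S100A2 fell with siPRMT1 under either treatment and S100A14 fell with siPRMT1 in R5020, both from low levels. S100A2, a nuclear member that binds p53, had 29, 17 and 8 counts in siCT ethanol, 12, 25 and 18 with siCT and R5020, 7, 6 and 6 with siPRMT1 and ethanol, and 4, 6 and 4 with siPRMT1 and R5020. In CPM all 6 siPRMT1 libraries (0.126 to 0.219) lay below all 6 siCT libraries (0.437 to 0.790). It fell 3.41-fold in ethanol (log2 -1.77 ± 0.35, adjusted p = 0.00285, edgeR) and 3.68-fold in R5020 (log2 -1.88 ± 0.37, adjusted p = 0.0033). With so few counts in siPRMT1 cells, the size of these folds is imprecise.

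S100A14, an epithelial member, had 24, 12 and 2 counts in siCT ethanol, 12, 16 and 24 with siCT and R5020, 7, 10 and 8 with siPRMT1 and ethanol, and 5, 6 and 8 with siPRMT1 and R5020. The siCT R5020 libraries lay above the siPRMT1 R5020 libraries without overlap, and the ethanol groups overlapped. The fall in R5020 was 2.62-fold (log2 -1.39 ± 0.47, adjusted p = 0.0452, edgeR). In ethanol the log2 fold change of -0.84 ± 0.47 was not called (adjusted p = 0.182), and without the pair that stood apart it was -1.15 (adjusted p = 0.0309). The call in R5020 held in 11 of 22 other ways of processing, and leaving out any 1 library except the 3 of siCT ethanol ended it (adjusted p = 0.0595 to 0.146), as did a replicate block (0.074) and library totals in place of TMM (0.147). R5020 gave no called difference of S100A2 (log2 -0.02 and -0.13) or S100A14 (log2 0.45 and -0.09). Without siCT ethanol replicate 1, S100A14 with R5020 in siCT cells was at log2 1.11 (adjusted p = 0.119), and with siPRMT1 in ethanol at -0.19 (adjusted p = 0.788), neither called.

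S100A11, S100A6 and S100A4 were not called by edgeR in any comparison over all 12 libraries. S100A11 stood at 1836, 1520 and 782.7 CPM in siCT ethanol, 1368, 2154 and 1946 with siCT and R5020, 1910, 1922 and 1851 with siPRMT1 and ethanol, and 2937, 2357 and 2634 with siPRMT1 and R5020. Both siPRMT1 groups lay above the siCT group of the same treatment without overlap, as did siPRMT1 R5020 above siPRMT1 ethanol. Its log2 fold changes were 0.46 ± 0.28 with siPRMT1 in ethanol (adjusted p = 0.23) and 0.54 ± 0.28 in R5020 (adjusted p = 0.178), and 0.40 ± 0.28 and 0.48 ± 0.28 with R5020 in siCT and siPRMT1 cells (adjusted p = 0.44 and 0.339, edgeR). Without the pair, siPRMT1 in R5020 was 0.38 ± 0.10 (adjusted p = 0.0139) and R5020 in siPRMT1 cells was 0.47 ± 0.09 (adjusted p = 0.00211), both called. For the same differences the authors' deposited table gives 0.527 with an adjusted p of 0.0149 and 0.477 with an adjusted p of 5.11e-10.

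A pseudogene, S100A11P1, held 2.99% to 4.74% as many counts as S100A11. Reads that fit both copies could be placed on either or lost, so the level of S100A11 is uncertain. In the GENCODE annotation S100A11 and S100A6 each overlap a clone-named gene on the opposite strand, and S100A4 overlaps S100A3 on the same strand, so their counts may include reads of these neighbours.

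S100A6, or calcyclin, which binds CACYBP, stood at 699.1, 437.9 and 437.0 CPM in siCT ethanol and at 419.8 to 529.3 CPM in siCT R5020. In siPRMT1 cells the ethanol libraries held 516.0 to 559.5 CPM and the R5020 libraries 525.0 to 591.2 CPM. All comparisons overlapped, and its log2 fold changes lay between -0.17 ± 0.20 (R5020 in siCT cells) and 0.27 ± 0.20 (siPRMT1 in R5020). S100A4, which binds nonmuscle myosin and is tied to cell motility, had means of 73.9 ± 22.8, 63.2 ± 11.3, 93.7 ± 5.43 and 78.0 ± 11.3 CPM in siCT ethanol, siCT R5020, siPRMT1 ethanol and siPRMT1 R5020. Its log2 fold changes were -0.23 and -0.27 with R5020 and 0.34 and 0.30 with siPRMT1, each ± 0.22. In siPRMT1 cells the R5020 libraries (64.9 to 84.5 CPM) lay below the ethanol libraries (87.7 to 98.2 CPM), and the authors' deposited table gives this difference as -0.264 with an adjusted p of 0.0121.

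S100A7, or psoriasin, a secreted antimicrobial protein of squamous skin and of some breast tumors, was barely detected. It had 0 counts in the 3 siCT ethanol libraries, 1, 0 and 1 in siCT R5020, 4, 5 and 0 in siPRMT1 ethanol, and 1, 2 and 4 in siPRMT1 R5020. A count of 0 allows up to 3 counts, or 0.0818 to 0.164 CPM in the siCT ethanol libraries, for counting error only. No fold or test is given for it.

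With siPRMT1 in ethanol 4 of the 9 tested members were called, S100A8, S100A9 and S100P higher and S100A2 lower. Over all genes 32.8% were called, 13.6% higher and 19.2% lower. With siPRMT1 in R5020 5 members were called, the same 4 in the same directions and S100A14 lower, where 25.7% of all genes were called, 11.5% higher and 14.2% lower. The members' median log2 fold change was 0.34 in ethanol and 0.30 in R5020, beside -0.07 and -0.03 over all genes tested. For the interaction none of the 9 members was called by edgeR, and 1, S100P, had an unadjusted p under 0.05. Over all genes 14 were called, or 0.0790%, and 720 had an unadjusted p under 0.05. The comparisons share libraries (both siPRMT1 comparisons use groups that the R5020 comparisons also use), so their calls are not independent of each other.

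**Figure D5:**
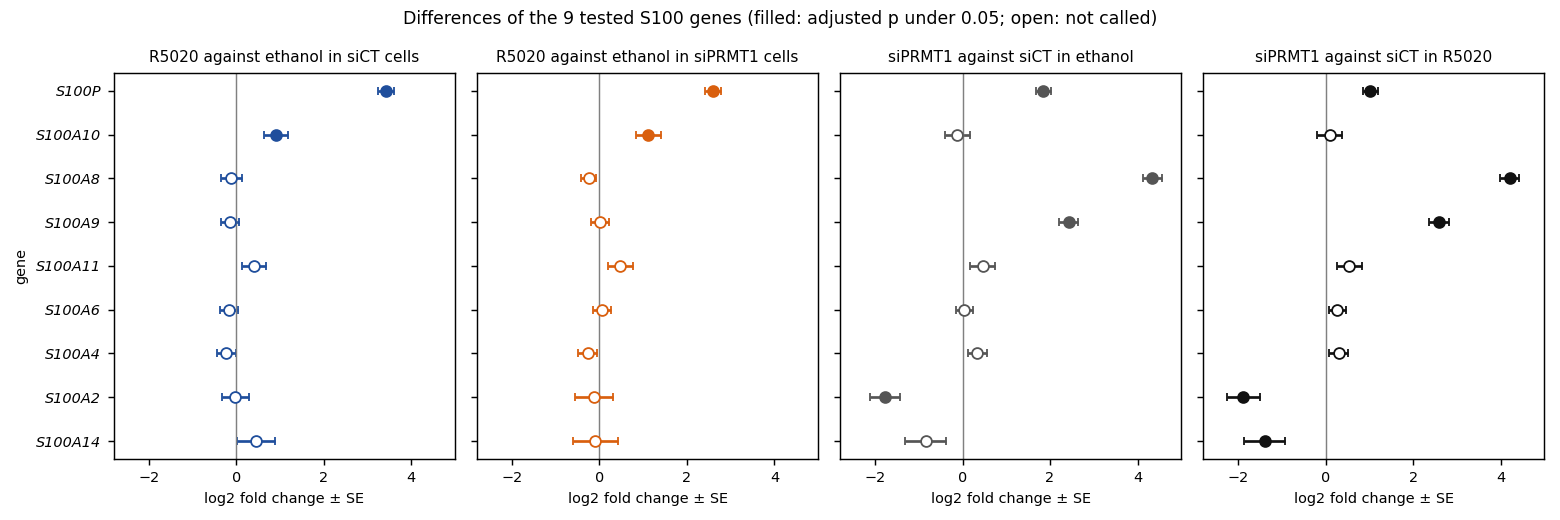
Log2 fold change ± SE (horizontal) of the 9 tested S100 genes (vertical) in the 4 comparisons, each from 3 against 3 libraries within a fit of all 12, filled where the adjusted p was under 0.05. R5020 has 2 filled points in each of the left panels, and siPRMT1 has 4 in ethanol and 5 in R5020.

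The genes whose log2 levels ran most like each member over the 12 libraries were sought among the 10672 genes whose mean reached 5 CPM. All points share the same libraries and groups, so the values describe these libraries only. For S100P the closest were ZBTB7C (Pearson r = 0.992), the clone-named RP11-603K19.1 (0.990), the cell cycle gene CCND1 (0.984), the kinase gene RPS6KA5 (0.983) and DOPEY2 (0.983). CCND1 stood at 39.9 ± 7.05 CPM in siCT ethanol, 63.9 ± 5.86 in siPRMT1 ethanol, 120.2 ± 15.6 in siCT R5020 and 192.4 ± 10.7 in siPRMT1 R5020, which is the order of the S100P means too. For S100A9 the closest was ALDH3B2, an aldehyde dehydrogenase (0.994), at 39.4 ± 8.47 and 35.9 ± 5.47 CPM with siCT and 134.4 ± 4.61 and 134.0 ± 10.5 CPM with siPRMT1. For S100A10 it was PRDX6, a peroxiredoxin (0.989), at 254.4 ± 79.4 and 257.0 ± 10.3 CPM in the ethanol groups and 408.1 ± 71.4 and 460.5 ± 13.6 CPM in the R5020 groups. For S100A2 it was SFXN2 (0.979), for S100A11 MRPS26 (0.993), for S100A4 SEPHS1 (0.954), for S100A6 ACTR1B (0.926) and for S100A14 DTYMK (0.924).

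Other S100 genes and the S100P-binding protein gene S100PBP formed a list of 11, of which 4 were tested: S100A1, S100A13, S100A16 and S100PBP. R5020 called none of the 4 with either siRNA. S100A1, the calcium sensor best known from muscle, fell 2.63-fold with siPRMT1 in ethanol (13.1 ± 3.16 to 5.00 ± 0.162 CPM, adjusted p = 0.000169) and 1.88-fold in R5020 (13.4 ± 0.899 to 7.15 ± 0.809 CPM, adjusted p = 0.0029, edgeR). S100PBP rose 1.29-fold with siPRMT1 in ethanol (adjusted p = 0.0429). S100A16, at 210.8 to 270.5 CPM in the group means, was not called in any comparison. Without the pair that stood apart, R5020 in siPRMT1 cells also called S100A1 (1.42-fold higher) and S100PBP (1.27-fold lower), in a fit that called 29.1% of all genes.

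Of 24 genes for proteins that S100 proteins bind, 23 were tested. R5020 raised 5 of the 23 in siCT cells and 6 in siPRMT1 cells and lowered none in either (median log2 0.23 and 0.21). Among all genes tested, 7.59% and 9.30% were called higher. ANXA2, the annexin that pairs with S100A10, rose 1.63-fold in siCT cells (650.1 ± 53.5 to 1058 ± 54.4 CPM, adjusted p = 0.00734) and 1.82-fold in siPRMT1 cells (425.6 ± 26.8 to 776.5 ± 29.7 CPM, adjusted p = 0.00145). EZR, which encodes the S100P partner ezrin, rose 2.72-fold and 2.93-fold. FKBP5, a steroid receptor cochaperone whose repeat domain binds some S100 proteins, rose 12.3-fold and 11.3-fold.

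With siPRMT1, 4 of these 23 rose and 5 fell in ethanol, and 2 rose and 5 fell in R5020 (median log2 -0.04 and 0.13), where 32.8% and 25.7% of all genes were called. CACYBP, named for binding calcyclin (S100A6), rose 3.44-fold in ethanol (adjusted p = 0.000553) and 2.08-fold in R5020 (adjusted p = 0.0118, edgeR). MDM2, the ligase that restrains p53, rose 1.53-fold and 1.54-fold. ANXA1, a partner of S100A11, fell 2.41-fold in ethanol (9.66 ± 2.36 to 3.99 ± 0.577 CPM). Without the pair, the counts were 7 up and 1 down, and 9 up and 3 down, for R5020, and 6 up and 8 down, and 5 up and 6 down, for siPRMT1. Of all genes, the fit without the pair called 19.9% and 29.1% with R5020 in siCT and siPRMT1 cells, and 44.5% and 38.9% with siPRMT1 in ethanol and R5020.

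A list of 12 genes for receptors and other membrane proteins was set beside the secreted S100 proteins, and 8 were tested. It holds growth factor receptors such as EGFR, and a place on it does not show that an S100 protein binds the product. AGER, which encodes RAGE, the receptor of S100P and calprotectin among others, fell 4.52-fold with siPRMT1 in ethanol (3.03 ± 1.56 to 0.650 ± 0.196 CPM, adjusted p = 0.00308) and 3.79-fold in R5020 (1.77 ± 1.02 to 0.459 ± 0.0763 CPM, adjusted p = 0.0118, edgeR). BSG, which encodes basigin, an S100A9 receptor, fell 2.69-fold and 2.04-fold. EGFR fell 3.65-fold and 2.00-fold, and rose with R5020 2.60-fold with siCT and 4.75-fold with siPRMT1. These 3 were the genes of the list called with siPRMT1, all lower, where 19.2% and 14.2% of all genes were called lower. Without the 2 libraries apart from the rest, siPRMT1 called 3 higher and 4 lower in ethanol and 3 higher and 3 lower in R5020, beside 44.5% and 38.9% of all genes. The falls in ethanol and R5020 were then smaller: 3.34-fold and 2.57-fold for AGER, 1.88-fold and 1.63-fold for BSG, and 2.57-fold and 1.63-fold for EGFR.

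Of 21 other EF-hand and calcium sensor genes, 18 were tested. R5020 raised 4 in siCT cells and 3 in siPRMT1 cells and lowered none (median log2 0.12 and 0.11), against 7.59% and 9.30% of all genes higher. NCALD, a neuronal-type calcium sensor, rose 6.67-fold in siCT cells (2.95 ± 1.13 to 20.2 ± 4.31 CPM) and 3.10-fold in siPRMT1 cells, HPCAL1 2.40-fold and 2.68-fold, and EFHD1 2.80-fold and 1.77-fold. With siPRMT1 4 rose and 4 fell in ethanol, and none rose and 2 fell in R5020, against 32.8% and 25.7% of all genes called. CALM2, a calmodulin gene, rose 2.15-fold and STIM1, the calcium sensor of the endoplasmic reticulum, fell 1.95-fold with siPRMT1 in ethanol. Without the pair, R5020 gave 6 up and 1 down, and 5 up and 1 down, and siPRMT1 7 up and 5 down, and 3 up and 3 down, where 19.9%, 29.1%, 44.5% and 38.9% of all genes were called.

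Most members lie in a cluster on chromosome 1, and 15 of 24 neighbouring genes were tested. With siPRMT1 1 neighbour rose and 6 fell in ethanol, and 3 rose and 6 fell in R5020, while 32.8% and 25.7% of all genes were called. The neighbours that fell in ethanol included INTS3 (2.01-fold), DENND4B (1.88-fold), CRTC2 (1.71-fold) and SLC27A3 (3.18-fold, and 2.00-fold without the pair that stood apart). R5020 gave 1 fall in each background, beside 5.43% and 6.08% of all genes lower: IVL, which encodes involucrin of the squamous cell envelope (1.71-fold in siCT cells), and TCHH (3.94-fold in siPRMT1 cells). Without the pair, R5020 gave 1 rise and 3 falls, and 1 rise and 5 falls, and siPRMT1 gave 3 rises and 6 falls, and 5 rises and 6 falls. The shares of all genes called were then 19.9%, 29.1%, 44.5% and 38.9%.

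Secretory genes of mucosa and skin, with which S100A7, S100A8 and S100A9 are often expressed, formed a list of 16, of which 15 were in the tables and 7 were tested. SLPI, a secreted protease inhibitor, rose 11.8-fold with R5020 in siCT cells (0.325 to 3.48 CPM, adjusted p = 6.33e-06) and 2.43-fold in siPRMT1 cells. With siPRMT1 it rose 8.79-fold in ethanol and 1.82-fold in R5020 (adjusted p = 0.0196, edgeR). LCN2, or lipocalin 2, rose 2.51-fold with siPRMT1 in R5020 (adjusted p = 0.0443, edgeR). In ethanol LCN2 was 1.7-fold higher with siPRMT1 and not called (adjusted p = 0.198). Without the pair that stood apart this rise was called (2.95-fold, adjusted p = 0.000752, edgeR). TFF3, a trefoil peptide, fell 2.48-fold and 2.12-fold with siPRMT1. In all, R5020 raised 1 and lowered 1 in siCT cells and raised 2 in siPRMT1 cells, and siPRMT1 raised 1 and lowered 1 in ethanol and raised 2 and lowered 1 in R5020. Over all genes the shares called were 13%, 15.4%, 32.8% and 25.7%. Without the pair, R5020 gave 2 up and 1 down with either siRNA. For siPRMT1 the counts were then 2 up and 1 down in ethanol, and 3 up and 1 down in R5020. That fit called 19.9%, 29.1%, 44.5% and 38.9% of all genes.

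Among called genes as a whole, the authors' deposited table, from the same study, gives the same direction for 100% in each of the 4 comparisons. It is therefore no independent check of the members. For the 13 member differences called here it gives the same direction too. Its log2 fold changes for S100P are 3.19 and 2.59 with R5020 in siCT and siPRMT1 cells, and 1.81 and 1.02 with siPRMT1 in ethanol and R5020. For S100A8 the authors' deposited table gives 4.07 and 3.93 with siPRMT1, and for S100A9 2.32 and 2.50. For S100A10 with R5020 in siCT cells it gives 0.806 with an adjusted p of 0.0985, which does not pass the threshold of 0.05, and 1.11 in siPRMT1 cells with an adjusted p of 3.02e-83. The authors' deposited table lists S100A14 with siPRMT1 in R5020 at -0.932 with an adjusted p of 0.0619.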

How the data were processed

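Total RNA was extracted with TRIzol and sequenced after library preparation with a Lexogen SENSE kit for mRNA, per the labels' protocols. The authors deposited whole-number read counts per gene symbol for each library, without normalization. Bowtie2 2.3.2.2, HTSeq 0.9.1, DESeq2 and build hg19 are named in the submitters' processing notes, with no roles. Aligner settings, annotation release, strand setting and handling of duplicates are not given in any source used here, so reads of genes on opposite strands, or of near-identical copies, may be shared or lost. The authors also deposited a table of log2 fold changes and adjusted p-values for 4 comparisons, in which a positive log2 value means higher in the second group named.

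Counts were tested in R 4.3.3 with edgeR 4.0.16: filterByExpr (17727 genes kept), TMM scaling, 1 mean per group over all 12 libraries, the quasi-likelihood test, and p-values adjusted by Benjamini-Hochberg across the whole tested table, called at an adjusted p under 0.05. Each SE given for edgeR is the size of the log2 fold change divided by the square root of the test's F statistic. The procedure was tested on simulated data. CPM came from dividing counts by the TMM-scaled total of the tested genes, and exon lengths came from GENCODE 29. The log2 levels used for correlations came from edgeR's cpm function with a prior count of 2. Alternatives used DESeq2 1.42.0 and limma 3.58.1 (voom), other scalings, no filter, fewer libraries and a replicate block. No batch is given in the labels. The text names all 10 members, PRMT1 as a check, up to 4 genes with the smallest adjusted p per list and comparison, the most alike genes (that of S100A8 is not reported here), and fixed cell type markers. The members and lists were chosen with earlier results of these data known.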

Additional observations from a re-analysis of the deposited data

How the results depend on the processing

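Of the 13 called member differences, all 13 kept their sign, and 10 stayed called, in every alternative that tested the gene. S100A2 was not tested with siPRMT1 in ethanol when only the 6 libraries compared were used, where it did not pass the filter on low counts. The other 3 of the 13 were S100A10 with R5020 in both cell backgrounds and S100A14 with siPRMT1 in R5020. The number of members called with R5020 in siCT cells (2, with 13% of all genes called) was 1 with library totals alone (8.9%). It was also 1 with a replicate block (10.7%) and with only the 6 libraries compared (5.29%). When 1 library was left out it ranged from 1 to 2 (8.57% to 16.8%). In siPRMT1 cells (2) it was 1 with library totals alone (11.6% of all genes called). It was 5 with voom quality weights (46.1%) and 5 with only the 6 libraries compared (46.6%). Leaving out 1 library gave 1 to 2 (10.1% to 21.1%). For siPRMT1 in ethanol (4) it was 3 with only the 6 libraries compared (19.5% of all genes called) and 5 with no filter (19.7%). Without the 2 high-mitochondrial libraries described above it was 6 (44.5%), and 4 to 5 when 1 library was left out (19.3% to 43.4%). For siPRMT1 in R5020 (5) it was 4 with library totals alone (13.7%) and 4 with a replicate block (21.7%). With voom quality weights it was 6 (55.7%), without those 2 libraries 6 (38.9%), and 4 to 6 when 1 library was left out (12.9% to 37.5%). For the interaction (0, 0.079% of all genes) it was 1 with DESeq2 (0.538%) and 1 without those 2 libraries (0.779%), in each case S100P. An alternative chosen after seeing the data, without that pair and with library totals alone, gave 5 in siPRMT1 cells with R5020 (34.8% of all genes). It gave 6 for siPRMT1 in ethanol (43.8%) and 1 for the interaction (0.773%).

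Of the differences not called, 4 changed sign and moved by more than their standard error. Without siCT ethanol replicate 1, R5020 in siCT cells gave log2 values of 0.30 for S100A2, 0.10 for S100A6 and 0.12 for S100A9. Over all left-out libraries these ranged from -0.16 to 0.30, from -0.29 to 0.10 and from -0.33 to 0.12. S100A10 with siPRMT1 in R5020 was -0.20 without the pair and with library totals alone.

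Over all genes, calls were 2308 for R5020 in siCT cells (898 with only the 6 libraries compared to 3818 without the pair and with library totals alone), 2725 in siPRMT1 cells (1831 without siPRMT1 ethanol replicate 1 to 8179 with voom quality weights), 5806 for siPRMT1 in ethanol (3021 with library totals alone to 8003 without the pair), 4559 in R5020 (2332 without siPRMT1 R5020 replicate 2 to 9866 with voom quality weights) and 14 for the interaction (0 with the replicate block to 140 without the pair). Library totals alone moved the median of all genes by -0.17 for R5020 in siPRMT1 cells, 0.18 for siPRMT1 in ethanol and -0.14 for the interaction, and the share of calls that were higher from 60.5% to 43.5% for R5020 in siPRMT1 cells, from 44.9% to 30.6% for siPRMT1 in R5020 and from 57.1% to 33.3% for the interaction.

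Libraries with the same replicate number did not deviate together: of 18 such pairs, 3 had a correlation over 0.1 (range -0.667 to 0.29), so the numbers were not taken as a pairing. Depth limits S100A2, S100A7 and S100A14, which had at most 29 counts in a library.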
